A study of Rattus norvegicus with 36 samples.

Results

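The adipocyte genes described here are *Adipoq*, *Lep*, *Plin1*, *Cfd*, *Fabp4*, *Lpl*, *Pparg* and *Cidec*. The members were the probe sets of an Affymetrix rat genome array that carried a single gene symbol equal to one of these names, and 9 of 31042 probe sets met this rule, 2 of them for *Plin1* and 1 for each other gene, for 8 of 14217 annotated genes. They were followed in vocal fold (VF) mucosa of male Fischer 344 rats, which were 120 days old at the start of the experiment. The post-injury (PI) groups had the mucosa stripped from both VFs by surgery and were harvested at 3, 14 or 60 days, at 123, 134 and 180 days of age. The control groups were uninjured rats of the same ages. Tissue of 4 rats, from both sides of the larynx, was pooled for each array. According to the array labels each PI group had 5 arrays, while the control groups had 3 arrays at 3 and at 14 days and 2 at 60 days. The methods differ from these labels at 60 days: they give 4 PI arrays, since RNA for the last one fell short, and 3 control arrays. The labels were followed here. Whether an array of that time carries the wrong label was not tested, and each 60-day difference between PI and control rests on those labels. A further 13 arrays held cultured VF fibroblasts, each from 1 rat: 4 cultures of scar fibroblasts explanted 60 days after injury, 3 of scar fibroblasts treated with gp46 siRNA, 3 of scar fibroblasts treated with scramble siRNA and 3 of naive fibroblasts. The labels give the rats of all 13 cultures as 120 days old at the start and 180 days at harvest. Every value below is a log2 signal made by RMA, a method that summarizes the probes of a probe set, so that a difference of 1 is a doubling. A probe set was called at a limma p below 0.05 after Benjamini-Hochberg adjustment over all 31042 probe sets.

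Adipocytes store triglyceride in a lipid droplet and release it as fatty acids when other tissues need fuel. Lipoprotein lipase, the product of *Lpl*, frees fatty acids from circulating lipoproteins, the chaperone encoded by *Fabp4* carries them inside the cell, and the nuclear receptor encoded by *Pparg* drives the adipocyte program. Perilipin (*Plin1*) and *Cidec* coat and enlarge the droplet, while adiponectin (*Adipoq*), leptin (*Lep*) and adipsin (*Cfd*, complement factor D) are secreted into the blood. Some of these genes are used outside fat as well: *Fabp4* is known from macrophages and capillary endothelium, *Lpl* from skeletal and heart muscle and macrophages, and *Pparg* from macrophages. Adiponectin, leptin, perilipin and *Cidec* are the narrower markers of the mature fat cell.

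Promoter sequences are shown for the members whose windows share a motif, a feature that the choice of members did not use. RefSeq promoters of the GRCr8 assembly, running from 250 bases before to 50 bases after a gene start, were found for 6 of the 8 members, in 7 windows since *Pparg* had 2 starts. *Fabp4* and *Lpl* had no entry. Of 5 motifs searched on both strands, TTGCNNAA is shown, a form of the site bound by C/EBP proteins, which act beside the *Pparg* product in fat cell differentiation. It was chosen after the counts were seen. It stood in 4 of the 7 windows, those of 4 members, and in 10.6% of all 33469 promoters of that length. The Sp1 site GGGCGG stood in 3 of the 7 windows (*Lep*, *Cfd* and the first start of *Pparg*) and in 33.1% of all promoters. The letters of the TATA box, TATAAA, stood in 1 window (the first start of *Pparg*) and in 14.2% of all promoters. That match lay after the gene start, at position 29, and on the strand opposite to the gene. The 4 windows follow 5′ to 3′ on the strand of the gene, with the match in capitals. They lie at chr4:58626288-58626587 on the plus strand (*Lep*), chr1:143086099-143086398 on the minus strand (*Plin1*), chr4:150154522-150154821 on the plus strand (the second start of *Pparg*) and chr4:148137066-148137365 on the minus strand (*Cidec*).
Lep: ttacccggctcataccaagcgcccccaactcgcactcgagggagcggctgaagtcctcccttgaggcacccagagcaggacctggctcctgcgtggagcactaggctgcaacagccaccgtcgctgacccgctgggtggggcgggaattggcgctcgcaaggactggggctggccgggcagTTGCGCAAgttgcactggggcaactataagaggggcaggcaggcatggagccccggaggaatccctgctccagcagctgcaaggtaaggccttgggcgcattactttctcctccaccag
Plin1: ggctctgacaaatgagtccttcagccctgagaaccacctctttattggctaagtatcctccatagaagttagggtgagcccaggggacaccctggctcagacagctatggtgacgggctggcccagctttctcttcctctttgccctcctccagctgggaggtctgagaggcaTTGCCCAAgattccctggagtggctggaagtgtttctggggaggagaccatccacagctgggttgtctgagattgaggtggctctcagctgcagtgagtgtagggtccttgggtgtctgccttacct
Pparg: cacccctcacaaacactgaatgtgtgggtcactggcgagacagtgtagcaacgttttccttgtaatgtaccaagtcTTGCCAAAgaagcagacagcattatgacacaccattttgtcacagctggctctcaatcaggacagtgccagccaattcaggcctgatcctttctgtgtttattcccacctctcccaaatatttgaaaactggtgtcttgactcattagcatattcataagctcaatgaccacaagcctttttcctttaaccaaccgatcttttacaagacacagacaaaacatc
Cidec: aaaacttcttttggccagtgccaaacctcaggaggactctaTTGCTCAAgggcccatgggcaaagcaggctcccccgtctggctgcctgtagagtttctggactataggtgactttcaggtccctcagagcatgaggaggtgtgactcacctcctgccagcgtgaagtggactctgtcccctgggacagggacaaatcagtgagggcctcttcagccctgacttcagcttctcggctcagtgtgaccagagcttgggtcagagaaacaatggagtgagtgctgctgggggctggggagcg
Counted from the gene start, the match began at -69 in *Lep*, -77 in *Plin1*, -174 in *Pparg* and -209 in *Cidec*, and in *Lep* the same letters read on both strands. The direct repeat of 2 AGGTCA copies spaced by 1 base, the form bound by the *Pparg* product with its partner RXR, was in none of the 7 windows and in 0.0538% of all promoters. A single AGGTCA, which is also part of that repeat, was in none of the 7 windows and in 16.2% of all promoters. Such a match is a run of letters in a window and not a measured binding site.

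Set against the cultured fibroblasts, the members did not share a single pattern. *Adipoq*, *Lep*, both *Plin1* probe sets and *Cidec* lay near the level of the fibroblast cultures in all 23 mucosa arrays. Of the members, *Fabp4* and *Cfd* stood clear above all cultures, and *Lpl* and *Pparg* above most of them. *Adipoq* ran between 5.22 and 5.84 in mucosa and between 4.86 and 5.75 in cultures, and *Lep* between 4.561 and 5.203 in mucosa and between 4.79 and 5.23 in cultures. The *Plin1* probe sets ran between 3.97 and 4.36 and between 4.19 and 4.65 in mucosa, against 3.90 to 4.48 and 4.26 to 4.82 in cultures. *Cidec* ran between 4.82 and 5.33 in mucosa and between 4.67 and 5.19 in cultures. The ranges of all 5 probe sets overlapped between mucosa and cultures, so the narrower fat cell markers did not stand clear of cultured fibroblasts, and the members are better called the *Fabp4*, *Cfd*, *Lpl* and *Pparg* set with 5 probe sets at culture level. Whether these 5 probe sets can detect their transcripts was not tested, and neither was whether the mucosa held fat cells.

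In a fit of 10 groups over 36 arrays, added after these levels were seen, control mucosa was compared with the 3 naive fibroblast cultures. *Fabp4* was 99.99-fold higher in control mucosa (log2 fold change 6.64, SE 0.28, adjusted p = 2.82e-19), *Cfd* 34.4-fold (5.10, SE 0.33, adjusted p = 1.73e-14), *Lpl* 8.88-fold (3.15, SE 0.73, adjusted p = 0.000366) and *Pparg* 2.77-fold (1.47, SE 0.20, adjusted p = 1.55e-07). *Lpl* in the naive cultures read 9.80, 6.205 and 9.94, so that 1 culture lay far below the other two. Without that culture, replicate 2, *Lpl* was 3.81-fold higher in control mucosa (1.93, SE 0.75, adjusted p = 0.0261), and without replicate 1 or 3 it was 13.2-fold and 13.9-fold higher. These 4 of 9 probe sets were the ones called, all higher in mucosa, where 66.9% of all probe sets were called, 24.7% higher and 42.3% lower. *Adipoq* differed by 0.18 on the log2 scale (95% interval -0.09 to 0.45, adjusted p = 0.241) and *Lep* by -0.18 (-0.39 to 0.03, adjusted p = 0.13). The 2 *Plin1* probe sets differed by -0.14 (-0.30 to 0.02) and -0.00 (-0.19 to 0.18), and *Cidec* by 0.17 (-0.02 to 0.36). *Cidec* was called without replicate 2 of the naive cultures (0.31, SE 0.10, 1.24-fold, adjusted p = 0.00726). The intervals over all cultures reach no further than 1.36-fold in either of these secreted hormones and no further than 1.28-fold for *Cidec*. They bound the signal and not the transcript, since detection by these probe sets was not tested. The median difference over all probe sets was -0.14 on the log2 scale. Mucosa arrays pooled 4 rats and cultures came from 1. Rats of the naive cultures were 180 days old at harvest, and those of control mucosa 123, 134 or 180 days. The comparison does not separate these differences from the tissue.

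**Figure D1:**
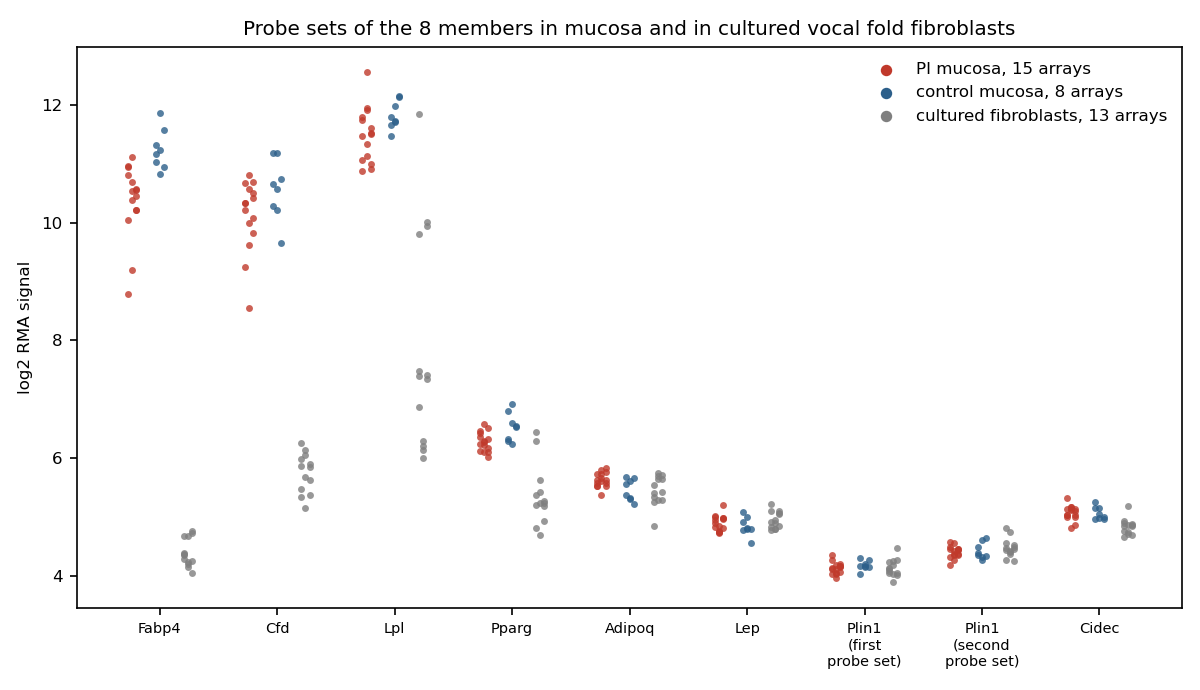
Log2 RMA signal (vertical axis) of the 9 probe sets in each array of PI mucosa (15 arrays), control mucosa (8 arrays) and cultured fibroblasts (13 arrays), 1 point per array. *Fabp4* and *Cfd* of mucosa lie clear of all cultures, *Lpl* and *Pparg* overlap with some of them, and the other 5 probe sets share 1 range; heights of different probe sets are not comparable.

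The first comparison asked what had changed by 3 days after injury. *Fabp4*, *Lpl* and *Pparg* were lower in PI mucosa, *Cfd* did not pass the test, and the 5 probe sets at culture level did not pass it either. The 3 called members were 3 of 9 probe sets and all fell, where 23% of all probe sets were called, 11% higher and 12% lower. The median log2 fold change over the 8 members, with 1 probe set per gene, was -0.20, against 0.01 over all genes.

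*Fabp4*, the fatty acid chaperone, read 10.21, 10.05, 10.39, 10.21 and 8.79 in the PI arrays at 3 days, against 11.02, 11.86 and 11.57 in the control arrays. The groups did not overlap, and PI replicate 5 lay far below the other PI arrays. *Fabp4* fell by 1.56 on the log2 scale (SE 0.34, 2.94-fold lower, adjusted p = 0.00222). Without that array and 2 others that deviated with it over the whole array (control replicate 3 at 14 days and PI replicate 4 at 60 days), the log2 fold change was -1.27 (adjusted p = 2.37e-05). Over all alternatives the value ran between -1.79 and -1.27, with adjusted p between 8.74e-07 and 0.0172.

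*Lpl*, the lipase at the capillary wall, read 10.91, 10.87, 11.14, 10.997 and 11.06 in the PI arrays at 3 days, against 11.65, 11.98 and 12.12 in the control arrays. The PI arrays were close together and all below the lowest control array. *Lpl* fell by 0.92 (SE 0.19, 1.90-fold lower, adjusted p = 0.0014). *Fabp4* and *Lpl* were the 2 of 9 probe sets whose groups did not overlap at 3 days, as in 28.4% of all probe sets.

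*Pparg*, the nuclear receptor, read 6.02, 6.12, 6.10, 6.11 and 6.37 in the PI arrays at 3 days, against 6.33, 6.61 and 6.55 in the control arrays. PI replicate 5 was above the lowest control array, so the groups overlapped by a single array. The difference was small, -0.35 (SE 0.11, 1.28-fold lower, adjusted p = 0.0199), and it did not hold throughout. The adjusted p was 0.0938 without control replicate 2, 0.0863 without control replicate 3 and 0.249 after centring each array on ribosomal and respiratory chain genes, and *Pparg* was not called by the lognormal-normal model, the other tool used.

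*Cfd*, which encodes adipsin, read 10.50, 10.68, 10.80, 10.69 and 9.25 in the PI arrays at 3 days, against 10.29, 11.17 and 10.73 in the control arrays. The groups overlapped, and PI replicate 5 was again the lowest. The log2 fold change was -0.35 (SE 0.40, 95% interval -1.18 to 0.49, adjusted p = 0.596), and -0.06 without the 3 deviating arrays (adjusted p = 0.87). It ran between -0.57 and -0.06 when 1 array of that time was left out, without control replicate 1 and without PI replicate 5. The interval includes a fall as large as that of *Lpl*.

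**Figure D2:**
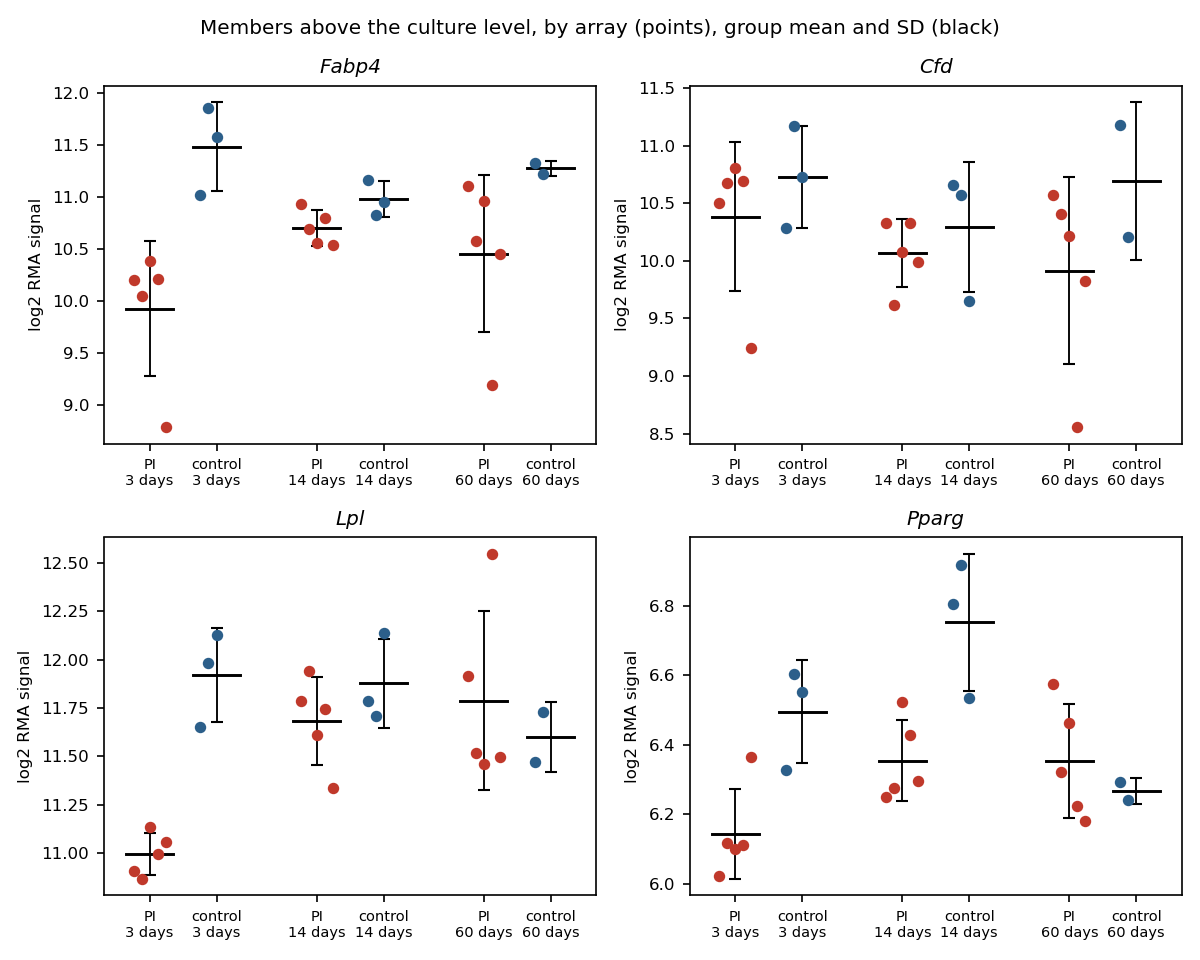
Log2 RMA signal (vertical axes, with a range of its own in each panel) of *Fabp4*, *Cfd*, *Lpl* and *Pparg* in each PI and control array at 3, 14 and 60 days, with group means (bars) and SD (whiskers). At 3 days every PI array of *Fabp4* and *Lpl* lies below every control array, and 1 low PI array at 3 days and 1 at 60 days stand out in *Fabp4* and *Cfd*.

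Among the 5 probe sets at culture level, the log2 fold change at 3 days was 0.22 for *Adipoq* (SE 0.11, adjusted p = 0.151), 0.10 for *Lep*, -0.04 and -0.06 for the *Plin1* probe sets and 0.05 for *Cidec*. *Adipoq* read 5.53 to 5.78 in the PI arrays (median 5.63) and 5.22 to 5.69 in the control arrays (median 5.31), with overlap. In bulk samples, fewer cells of a type and less RNA per cell cannot be told apart, for these and all other members.

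At 14 days no member was called (0 of 9 by limma, 2 of 9 at an unadjusted p below 0.05, 0 by the lognormal-normal model), where 1.92% of all probe sets were, 1.24% higher and 0.673% lower. *Pparg* came closest. It read 6.25, 6.28, 6.52, 6.43 and 6.30 in the PI arrays, against 6.81, 6.92 and 6.53 in the control arrays, and the lowest control array, replicate 3, lay just above the highest PI array. The log2 fold change was -0.40 (SE 0.11, adjusted p = 0.0571). It passed the test without that control array (-0.51, adjusted p = 0.0395) or without PI replicate 3 (-0.44, adjusted p = 0.0426). *Pparg* and the second *Plin1* probe set (0.15, adjusted p = 0.579) were the 2 of 9 probe sets without overlap, as in 11.2% of all probe sets.

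*Fabp4* at 14 days read 10.94, 10.69, 10.56, 10.80 and 10.54 in the PI arrays, against 11.16, 10.83 and 10.95 in the control arrays. The groups overlapped, and the log2 fold change was -0.28 (SE 0.34, adjusted p = 0.915). *Lpl* differed by -0.19 (SE 0.19, adjusted p = 0.874), with PI arrays between 11.34 and 11.94 and control arrays between 11.71 and 12.14. *Cfd* differed by -0.23 (SE 0.40, adjusted p = 0.953), and by -0.55 to -0.04 when 1 array of that time was left out, without control replicate 3 and without control replicate 1. The lowest *Cfd* value among controls, 9.65, was that of replicate 3, one of the 3 deviating arrays.

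At 60 days no member was called either (0 of 9 by limma, 1 of 9 at an unadjusted p below 0.05, 0 by the lognormal-normal model), where 0.0387% of all probe sets were, 0.0129% higher and 0.0258% lower. *Fabp4* read 11.11, 10.58, 10.96, 9.20 and 10.45 in the PI arrays, against 11.32 and 11.23 in the control arrays. All PI arrays were below both control arrays, and PI replicate 4 was the lowest. The log2 fold change was -0.82 (SE 0.39, 95% interval -1.64 to 0.00, adjusted p = 0.631), and it ran between -0.98 and -0.50 when 1 array of that time was left out. *Fabp4* and the second *Plin1* probe set (-0.20, adjusted p = 0.612) did not overlap between groups, as in 11.7% of all probe sets. *Cfd* read 10.57, 10.41, 10.21, 8.56 and 9.83 in the PI arrays, against 11.18 and 10.21 in the control arrays. The groups overlapped, and the log2 fold change was -0.78 (SE 0.46, adjusted p = 0.732). It was -1.26 without control replicate 2, -0.29 without control replicate 1 and -0.44 without PI replicate 4, so that the size rested on single arrays.

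*Lpl* at 60 days read 11.92, 11.52, 11.46, 12.55 and 11.50 in the PI arrays, against 11.47 and 11.73 in the control arrays. PI replicate 4, the lowest array for *Fabp4* and *Cfd*, was the highest for *Lpl*. The log2 fold change was 0.19 (SE 0.22, adjusted p = 0.865). *Pparg* differed by 0.09 (SE 0.12, adjusted p = 0.884), with PI arrays between 6.18 and 6.58 and control arrays of 6.29 and 6.24. The 2 control arrays limit the precision of all 60-day values.

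**Figure D3:**
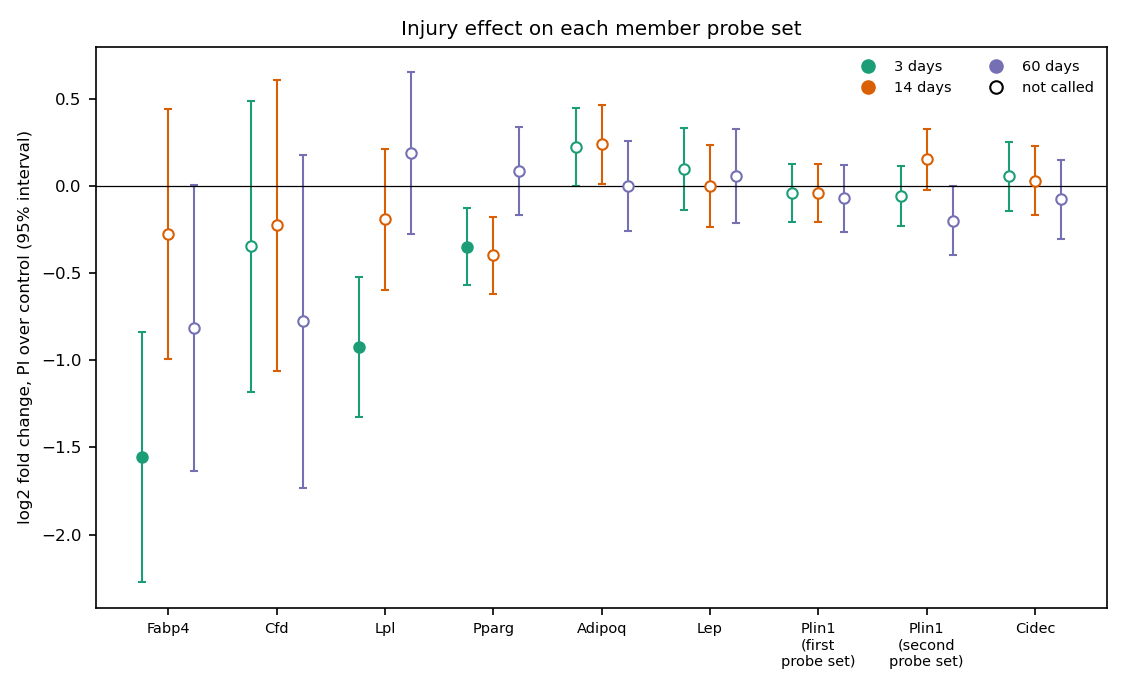
Log2 fold change of PI over control (vertical axis) with its 95% interval for each of the 9 probe sets at 3, 14 and 60 days; filled points were called, open points were not. *Fabp4*, *Lpl* and *Pparg* at 3 days are the called points, at -1.56, -0.92 and -0.35, and the intervals of *Cfd* are the widest.

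The injury effects were then compared between times. That of *Lpl* at 60 days exceeded that at 3 days by 1.11 (SE 0.29, adjusted p = 0.0174), and *Lpl* was the 1 of 9 probe sets called, where 11.4% of all probe sets were. The count was 0 without control replicate 3 at 3 days or without control replicate 1 at 60 days. The effect of *Fabp4* at 14 days minus that at 3 days was 1.28 (SE 0.49, adjusted p = 0.131) and that of *Lpl* 0.73 (SE 0.27, adjusted p = 0.123). No member was called there (0 of 9 by limma, 2 at an unadjusted p below 0.05), where 6.58% of all probe sets were. Between 60 and 14 days the effect of *Pparg* differed by 0.48 (SE 0.16, adjusted p = 0.579), 0 of 9 probe sets were called, 2 had an unadjusted p below 0.05, and 0.0548% of all probe sets were called.

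Within PI mucosa, *Lpl* averaged 10.99 ± 0.11, 11.68 ± 0.23 and 11.79 ± 0.46 at 3, 14 and 60 days (SD, n = 5 each), and it was the 1 of 9 probe sets called across the 3 PI groups (limma moderated F = 13.3, adjusted p = 0.00138), where 34.0% of all probe sets were. *Fabp4* averaged 9.93 ± 0.65, 10.70 ± 0.17 and 10.46 ± 0.75 (adjusted p = 0.114) and *Pparg* 6.14 ± 0.13, 6.35 ± 0.12 and 6.35 ± 0.16 (adjusted p = 0.117). Across the control groups 0 of 9 probe sets were called, as was 0% of all probe sets, and 1 had an unadjusted p below 0.05. This was *Pparg*, which averaged 6.495, 6.75 and 6.27 in the controls of 3, 14 and 60 days (SD 0.15, 0.20 and 0.04, limma F adjusted p = 0.634).

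The members differed in how much they varied among arrays of 1 group. *Cfd* had a within-group SD of 0.60 and *Fabp4* of 0.51, above those of 99.4% and 98.7% of all probe sets, against 0.28 for *Lpl* and 0.14 for *Pparg*. The 5 probe sets at culture level had SDs between 0.10 and 0.16, where the median of all probe sets was 0.16. In 3 arrays, PI replicate 5 at 3 days, PI replicate 4 at 60 days and control replicate 3 at 14 days, the deviations from the group mean over all probe sets resembled each other (Pearson's r between 0.40 and 0.58, across probe sets, which are not independent). *Cfd* was the lowest of its group in all 3 arrays, and *Fabp4* in both PI arrays. A list of ribosomal protein and respiratory chain genes, 12 of 16 measured, averaged 13.11 in the lowest PI array at 3 days and 13.42 in the median one, against 13.43 to 13.54 in the control arrays. With each array centred on this list, *Fabp4* (-1.43, adjusted p = 0.00105) and *Lpl* (-0.80, adjusted p = 0.0234) stayed called at 3 days, *Pparg* did not (-0.23, adjusted p = 0.249), and the *Plin1* probe sets, not called, changed sign to 0.08 and 0.07.

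Markers of other cells, among them cells that also use the members, were counted at 3 days, where 26.0% of all genes were called, 14.3% higher and 11.7% lower. Of 11 measured genes of mature skeletal muscle, 0 rose and 8 fell, with an overlapping mean level of 11.2 to 12.2 in PI arrays and 11.7 to 12.6 in control arrays. Of 11 endothelial genes, 5 rose and 0 fell, with a mean level of 8.75 to 8.94 in PI arrays and 8.33 to 8.58 in control arrays. Of 10 macrophage genes, 1 rose (*Adgre1*, 0.68) and 1 fell (*Cd5l*, -1.22), a share below that of all genes, with an overlapping mean level of 9.71 to 10.2 in PI arrays and 9.52 to 10.6 in control arrays. No mucosa array had any list of these 3 at the level of the cultures, where the macrophage and endothelial lists averaged at most 6.06 and 6.15. The muscle list averaged up to 8.97 in the scar cultures and up to 7.54 in the naive cultures. Of 10 fibroblast genes, 8 rose and 0 fell. Of 10 genes of seromucous glands, 1 rose and 5 fell. In the remaining lists 2 rose and 1 fell of 9 genes of stratified epithelium, 1 rose and 0 fell of 9 of cartilage, and 1 rose and 1 fell of 7 of thyroid. The median log2 fold change of the macrophage list was -0.44 at 14 days and -0.91 at 60 days. It was 0.17 and 0.16 for endothelium and -0.03 and 0.26 for muscle, against -0.00 and -0.03 over all genes. The macrophage list averaged 9.18 to 9.57 in PI arrays at 14 days and 9.66 to 9.89 in control arrays. At 60 days it averaged 8.42 to 9.45 in PI arrays and 9.73 to 10.1 in control arrays. The part of these cells in the values of *Fabp4*, *Lpl* and *Pparg* was not tested.

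The other genes of adipocyte biology were taken from 8 lists of known genes, with 1 probe set per gene. Of the 89 genes measured, 9 rose and 21 fell at 3 days, 33.7% in all, beside the 26.0% of all genes, 14.3% higher and 11.7% lower. The counts of single lists at 3 days below stand beside the same shares. The median log2 fold change was -0.13, against 0.01 over all genes. Some genes that fell are also genes of muscle, among them *Plin4*, *Plin5*, *Slc2a4*, *Cox8b* and *Cox7a1*. In the muscle list 8 of 11 genes fell at 3 days. The part of muscle and other cells in these list counts was not tested. At 14 days 1 rose and 2 fell, 3.37%, where 2.63% of all genes were called, 1.83% higher and 0.802% lower. At 60 days 0 of the 89 genes were called by limma, 14 had an unadjusted p below 0.05 and 0 were called by the lognormal-normal model, where 0.0492% of all genes were called, 0.0211% higher and 0.0281% lower.

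Of 14 lipid droplet proteins and lipases, 2 rose and 4 fell at 3 days. *Plin4*, a perilipin of small droplets in fat and muscle, read 7.93, 7.06, 7.81, 6.92 and 7.35 in the PI arrays, against 9.96, 8.74 and 9.55 in the control arrays. Every PI array was below every control array, and *Plin4* fell by 2.00 (SE 0.27, 4.01-fold, adjusted p = 1.12e-05). *Plin5*, the perilipin of muscle, fell by 1.25 (SE 0.26, adjusted p = 0.00133), and the triglyceride lipases *Pnpla3* and *Pnpla2* by 0.65 and 0.64. *Plin2*, the perilipin found in most cells, rose by 0.79 (SE 0.10, adjusted p = 6.06e-06), and the caveolar protein gene *Cav1* by 0.63. The hormone-sensitive lipase gene *Lipe* differed by -0.03 (adjusted p = 0.904).

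Of 13 genes of fatty acid and glycerol handling, 1 rose and 5 fell. *Slc2a4*, the insulin-regulated glucose transporter of fat and muscle, read 9.16, 8.09, 9.02, 7.64 and 8.19 in the PI arrays, against 10.81, 9.37 and 10.57 in the control arrays, and fell by 1.83 (SE 0.32, adjusted p = 0.000259). The fatty acid transporter gene *Cd36* read 9.45, 9.43, 9.51, 9.57 and 10.77 in the PI arrays, against 11.12, 10.96 and 11.27 in the control arrays, and fell by 1.37 (SE 0.29, adjusted p = 0.00153). In both genes no PI array reached a control array. *Gpd1*, which makes the glycerol backbone, fell by 1.28, *Acsl1* by 0.70 and *Aoc3* by 0.57. *Angptl4*, an inhibitor of lipoprotein lipase, went the other way: it read 9.57, 9.16, 9.62, 9.68 and 8.02 in the PI arrays, against 6.77, 7.60 and 6.69 in the control arrays, and rose by 2.19 (SE 0.31, 4.57-fold, adjusted p = 2.28e-05). The genes of the lipase and of its inhibitor moved in opposite directions at 3 days.

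Of 14 genes of fat synthesis, 2 rose and 1 fell, a share below the 26.0% of all genes called at 3 days. *Scd*, the desaturase that makes monounsaturated fatty acids, read 9.74, 9.42, 9.22, 9.07 and 9.60 in the PI arrays, against 6.81, 6.45 and 6.65 in the control arrays. It rose by 2.77 (SE 0.21, 6.83-fold, adjusted p = 5.24e-09), the largest change of any gene in the 8 lists. *Mogat1* rose by 0.27 and *Lpin1*, a phosphatidate phosphatase, fell by 0.97. The *Mogat1* signal was low, 4.56 to 5.16 in mucosa against 6.01 to 6.725 in cultures, and its PI and control arrays at 3 days overlapped. *Fasn* (-0.13) and *Acaca* (-0.07), of the main route of fatty acid synthesis, did not pass the test.

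Of 12 adipocyte transcription factors, 0 rose and 3 fell, a share near the 26.0% of all genes called at 3 days. *Klf15* fell by 1.19 (SE 0.17, adjusted p = 2.83e-05), *Ebf1* by 0.52 and *Ppargc1b* by 0.46. *Cebpa*, *Cebpb* and *Cebpd*, which encode the C/EBP proteins, differed by -0.15, 0.04 and 0.32 and did not pass the test. Of 9 adipokine receptors and other adipokines, 1 rose (*Apln*, 0.88), and of 9 hormone receptors 1 rose (*Irs1*, 0.47) and 1 fell (*Npr1*, -0.63). The shares of both lists were below that of all genes. Without the 3 deviating arrays 3 rose and 1 fell in the adipokine list, with *Rarres2*, *Nampt* and *C1qtnf2* added, and 2 rose and 3 fell in the fat synthesis list, with *Acly* and *Thrsp* added. In that fit 37% of all genes were called, 20.5% higher and 16.5% lower, so that 4 of 9 and 5 of 14 genes stood near the share of all genes. Of the 14 lipid droplet proteins and lipases 3 rose and 5 fell there, with *Plin3* and *Cidea* added. Of the 12 transcription factors 0 rose and 4 fell, with *Srebf1* added.

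Of 10 genes of brown adipocytes, 2 rose and 3 fell. *Cox8b* fell by 1.53 and *Cox7a1* by 1.36, both respiratory chain subunits of brown fat and striated muscle, and the coactivator gene *Ppargc1a* fell by 1.05. The thyroid hormone deiodinase gene *Dio2* rose by 1.57 (SE 0.26, adjusted p = 0.000162) and *Zic1* by 0.27. The range of *Zic1* in mucosa, 5.01 to 5.55, overlapped that in cultures, 5.13 to 5.60. *Ucp1*, the uncoupling protein that defines brown fat, ran between 4.10 and 4.72 in mucosa and between 4.40 and 5.34 in cultures. Of 9 genes of adipocyte precursors, 0 rose and 4 fell: *Pi16* by 1.18, *Sfrp5* by 1.09, *Gata2* by 0.59 and *Gata3* by 0.52. *Gata2* was not called without the 3 deviating arrays, where *Dpp4* was called instead, and 0 rose and 4 fell. In the brown adipocyte list 2 rose and 4 fell there, with *Cidea* added, beside the 37% of all genes called. The calls at 14 days were *Klf15* (-0.70, adjusted p = 0.0314) and *Sfrp5* (-0.79, adjusted p = 0.0197), which fell, and the preadipocyte gene *Dlk1* (0.82, adjusted p = 0.000385), which rose. *Klf15* and *Sfrp5* were not called without the 3 arrays, where 3.12% of all genes were called, 2.11% higher and 1.01% lower.

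**Figure D4:**
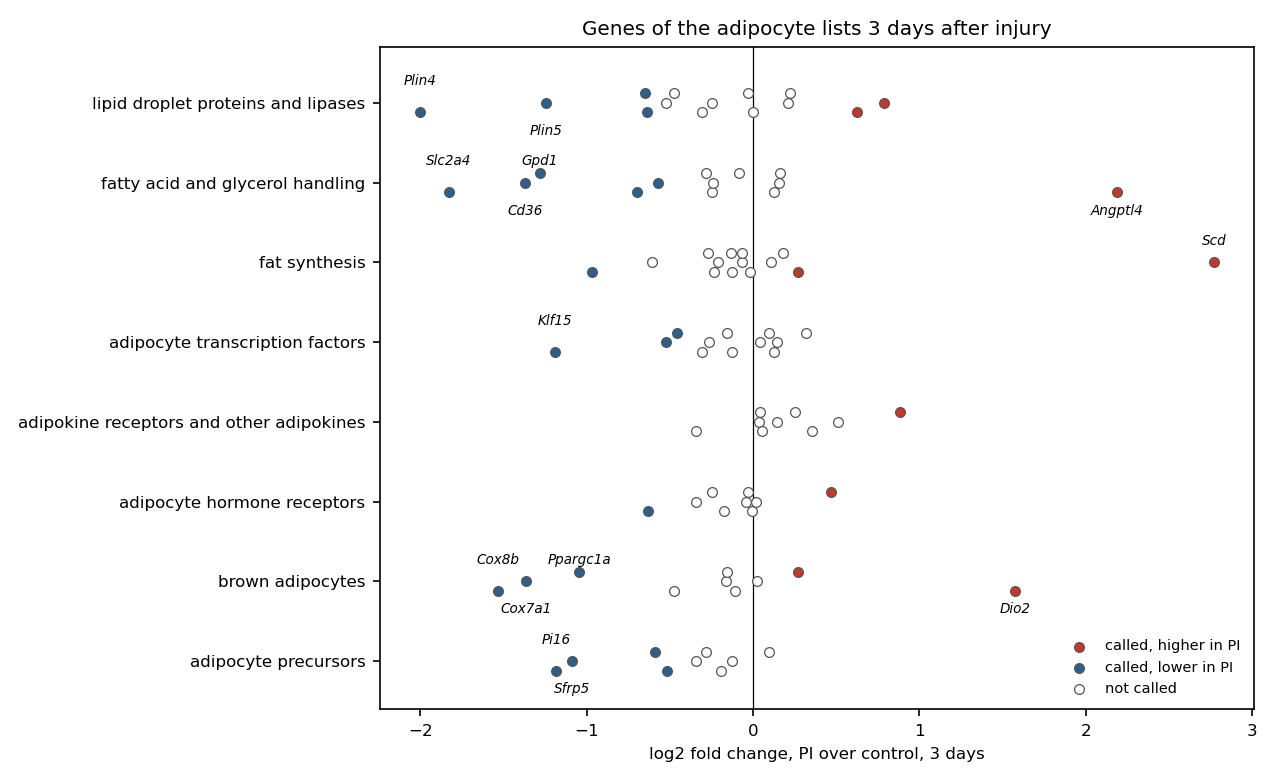
Log2 fold change of PI over control at 3 days (horizontal axis) for each measured gene of the 8 adipocyte lists (rows), 1 point per gene, red where called higher and blue where called lower; called genes past a change of 1 are named. *Scd* and *Angptl4* are the points farthest above 0 and *Plin4* and *Slc2a4* those farthest below it.

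Some of these genes too were far above the cultures in control mucosa, and others were not. *Slc2a4* exceeded the naive fibroblasts by 6.04 on the log2 scale, *Rbp4* by 5.76, *Cd36* by 5.63, *Cox8b* by 5.57 and *Gpd1* by 4.20. Of the 13 genes of fatty acid and glycerol handling 9 were higher and 1 was lower in mucosa, and of the 14 genes of fat synthesis 2 were higher and 9 were lower, with *Scd* at -5.27. Of 14 lipid droplet genes 8 were higher and 4 lower, and of 10 brown adipocyte genes 5 and 2. The counts were 5 and 3 of 9 precursor genes, and 3 and 4 of 9 in the adipokine list. They were 1 and 5 of 12 transcription factors and 2 and 5 of 9 hormone receptors. Over all probe sets 24.7% were higher and 42.3% lower. *Pck1* (0.13, adjusted p = 0.136), the adrenergic receptor gene *Adrb3* (-0.00, adjusted p = 0.97) and *Lepr* (0.02, adjusted p = 0.86) lay at the level of the cultures.

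To see which genes shared the array-to-array pattern of a member, each probe set was fitted on the level of *Adipoq* beside the 6 groups over 23 arrays. Limma called 0 of 31041 probe sets, and 1787 had an unadjusted p below 0.05. The 10 genes of highest positive slope by t were *Ffar2*, *Mbl1*, *Dennd4b*, *Fam3d*, *Nr4a1*, *Zdhhc2*, *Homer2*, *Cldn10*, *Rab26* and *Kif5a*, all with an adjusted p of 0.708. Of the members, *Pparg* followed *Adipoq* most closely, inversely (slope -0.71, SE 0.18, adjusted p = 0.708). The deviations from group means of *Adipoq* and *Pparg* correlated at Pearson's r = -0.73 and Spearman's rho = -0.80 over 23 arrays, and at r = -0.77 without the 2 arrays farthest from the median of *Adipoq*. In 100000 permutations of the deviations within groups, the adjusted p over 8 relations was 0.0139 for r and 0.00272 for rho. Since *Adipoq* lay at culture level, this correlation describes a signal in that range.

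The same fit on *Fabp4*, added after the levels were seen, over the 20 arrays other than the 3 that deviated, called 1 of 31041 probe sets (0.00322%), with a negative slope, and 0 to 74 when a further array was left out. The 10 genes of highest positive slope by t were *Pltp*, *Mt3*, *Slc28a2*, *Cd93*, *Fam13c*, *Flrt2*, *Cdh2*, *Fli1*, *Adamts7* and *Hip1*, with slopes of 0.53 to 1.31 and an adjusted p of 0.108. The slope was 0.87 for *Cfd* (SE 0.25, adjusted p = 0.209), 0.49 for *Lpl* (SE 0.16, adjusted p = 0.244) and 0.26 for *Pparg* (SE 0.11, adjusted p = 0.391). It was positive for 10 of 10 macrophage genes (median 0.76), 8 of 9 genes of adipocyte precursors (median 0.26), 10 of 11 endothelial genes (median 0.24), 10 of 10 fibroblast genes (median 0.13) and 1 of 11 muscle genes (median -0.20), none of them called, with medians between -0.36 and 0.09 in the other lists, and for 15022 of all 31041 probe sets (median -0.01). Over all 23 arrays 8594 probe sets were called (27.7%, 13% with a positive and 14.7% with a negative slope), so the count depended on the 3 arrays.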

How the data were processed

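The authors hybridized amplified RNA to Affymetrix rat arrays, summarized the probes with RMA and deposited 1 table of log2 signals for 36 arrays (tools RMA and affy per the labels, with versions not given in the sources used here). The deposited log2 values ran between 2.72 and 14.74, and their sorted values differed by at most 0.03 between arrays, so a value has meaning only against the rest of the same array. After 57 control probe sets were removed, 31042 remained, 20826 of them with 1 symbol. Groups followed the array labels, and p-values within mucosa measure the spread between pools of 4 rats. Those of mucosa against cultures rest on 1 spread shared by such pools and by cultures from 1 rat each.

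Fits used limma 3.58.1 in R 4.3.3, with 6 groups over 23 mucosa arrays, contrasts of PI minus control, contrasts of contrasts, and moderated F tests. EBarrays, named in the methods, was replaced by a lognormal-normal model written for this work (posterior probability over 0.95, 20 iterations), as an alternative. The tests were run on simulated data first. In the lists, 1 probe set stood for each gene, that of median mean intensity.

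The rule for named genes took all members, up to 4 called genes per list and comparison by size or, with none called, the 2 of highest mean, which are not printed (others named were chosen after their values were seen), and the 10 genes of highest positive t in each covariation fit. Members and lists were chosen with earlier results of these data known. The fit of mucosa against cultures, also without each naive culture, the fit on *Fabp4*, the list counts without 3 arrays and the centring on ribosomal and respiratory genes were chosen after seeing the data. The alternatives were 1 probe set per gene, array weights, a filter removing the 30% of probe sets of lowest mean, centring, repeated quantile normalization, single time points, pooled controls, a replicate block, *Plin1* or *Cidec* in place of *Adipoq*, and leaving arrays out. Plots were made in Python 3.11.15 with matplotlib 3.10.9.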

Additional observations from a re-analysis of the deposited data

Results flagged for a closer look

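In 3 of 27 combinations of a member probe set and a PI group of 5 arrays, 1 array lay apart from the other 4 by more of the group's range than Dixon's test allows at 95%; chance flags about 1 in 20 groups. All 3 were PI replicate 5 at 3 days. It was the lowest array for *Cfd*, at 9.25 (the gap was 0.805 of the range), and for *Fabp4*, at 8.79 (0.787), and the highest for *Pparg*, at 6.37 (0.722). The 3 are 1 array and not independent of each other.

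The injury effect on *Lpl* differed between times: that at 60 days minus that at 3 days was 1.11 on the log2 scale in the test of the difference itself (limma, adjusted p = 0.0174), and *Lpl* was called in it.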

How the results depend on the processing

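At 3 days *Fabp4* and *Lpl* stayed called under all 20 alternatives. The count of 3 called probe sets was 6 with array weights (*Adipoq*, *Lep* and the second *Plin1* probe set were added) and 2 to 4 when 1 array was left out, with *Adipoq* added (0.37, adjusted p = 0.0255) without control replicate 1. *Pparg* was not called after centring on ribosomal and respiratory genes (-0.23, adjusted p = 0.249). The count of 0 at 14 days was 2 with array weights (*Adipoq* and *Pparg*), 1 (*Pparg*) with either choice of 1 probe set per gene and without the 3 deviating arrays (adjusted p = 0.012), and 0 to 1 when 1 array was left out. At 60 days it was 0 under all 19 alternatives. Of effect differences, the count of 0 for 14 minus 3 days was 3 with array weights, 2 without the 3 arrays (*Fabp4* and *Lpl*) and 0 to 2 when 1 array was left out (2 without PI replicate 4 at 60 days). The count of 1 for 60 minus 3 days was 2 with array weights and without the 3 arrays (*Pparg* was added), and 0 to 2 when 1 array was left out (2 without PI replicate 5 at 3 days). Across PI groups the count of 1 was 4 with array weights, 3 without the 3 arrays and 1 to 2 when 1 array was left out (2 without PI replicate 5 at 3 days or PI replicate 4 at 60 days). Across control groups the count of 0 was 1 with array weights (*Pparg*). The filter on low means removed *Adipoq*, *Lep*, both *Plin1* probe sets and *Cidec*. With *Plin1* or *Cidec* in place of *Adipoq*, 0 probe sets covaried. The causes were not tested.

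Sign changes occurred in 26 of 537 values of single members under alternatives, none of them called. With array weights *Cidec* at 14 days was -0.0303 and *Lpl* at 60 days -0.0182. With pooled controls *Lep* at 14 days was 0.0144, *Cidec* at 14 days -0.00355, *Lpl* at 60 days -0.03565 and *Pparg* at 60 days -0.181. Without the 3 arrays *Plin1* (first probe set) at 14 days was 0.018, *Cidec* at 14 days -0.0048 and *Lpl* at 60 days -0.002. With centring on ribosomal and respiratory genes the *Plin1* probe sets at 3 days were 0.0802 and 0.0651 and *Cidec* at 14 days -0.0552. Leaving out 1 array gave ranges across 0 for *Adipoq* (-0.06125 to 0.0515 at 60 days, where the value was 0.00), *Lep* (-0.0347 to 0.233 at 3 days, -0.044 to 0.069 at 14 days, -0.01425 to 0.114 at 60 days), *Plin1* (second probe set, -0.138 to 0.0468 at 3 days and first probe set, -0.0985 to 0.018 at 14 days), *Cidec* (-0.0048 to 0.0922 at 14 days) and *Lpl* (-0.002 to 0.315 at 60 days). Against the naive cultures, leaving out 1 culture moved the second *Plin1* probe set between -0.037 and 0.036 and *Lpl* between 1.93 and 3.80, still called, and *Cidec* was called without replicate 2 (0.31).

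Replicate numbers did not pair the arrays: deviations from group means of PI arrays and of control arrays with the same number correlated at 0.258, 0.152 and -0.0686 at 3 days, -0.161, -0.016 and 0.17 at 14 days, and -0.134 and -0.118 at 60 days. With the number as a replicate block, 3, 0 and 0 members were called at 3, 14 and 60 days, with *Fabp4* at -1.27 (adjusted p = 0.000598), *Pparg* at 3 days at an adjusted p of 0.0337 and *Lep* at 60 days at -0.004.

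The calls over all probe sets numbered 7135 (3 days), 595 (14 days) and 12 (60 days), against 13977, 2680 and 80 with array weights, 1318 and 1336 with pooled controls at 14 and 60 days, 1215 and 1 with 1 time point alone at 14 and 60 days, 1209 and 94 in the lognormal-normal model at 14 and 60 days, 2 at 60 days with the replicate block, 35 at 60 days without the 3 arrays, 3771 and 7 with 1 probe set per gene at 3 and 60 days, and 258 to 581 and 0 to 32 when 1 array was left out at 14 and 60 days. The number of arrays, 2 of them control at 60 days, limits the precision.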

Other observations

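In the cultured fibroblasts *Lpl* varied more than in any mucosa group. It read 11.84, 6.0, 10.01 and 6.87 in the scar cultures, against 9.80, 6.21 and 9.94 in the naive cultures. It read 6.29, 7.41 and 7.39 in the scar cultures treated with gp46 siRNA, against 6.15, 7.35 and 7.48 in those treated with scramble siRNA. The SD was 2.72 in the 4 scar cultures and 2.12 in the 3 naive cultures, against 0.64 and 0.74 with the gp46 and the scramble siRNA. *Fabp4* in the same 13 cultures stayed between 4.05 and 4.77, and *Pparg* ran between 4.71 and 6.44. The highest *Pparg* values were 6.44 with gp46 siRNA and 6.30 with scramble siRNA, both in replicate 3. No test was run between these cultures.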
